A study of Rattus norvegicus with 23 samples.

Results

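The glucocorticoid-induced genes described here are Zbtb16, Fkbp5, Tsc22d3, Klf9, Klf15, Sgk1, Pdk4, Cdkn1c and Ddit4, with Nr3c1, which encodes the glucocorticoid receptor itself. Membership was set by name, as the non-control spots of the array whose gene symbol was one of these 10, and the names were chosen with earlier results of these data known. All 10 were measured, by 17 of the 45598 probes, and all 10 were among the 23029 genes tested. Total RNA of the accessory lung lobe was hybridised with 1 rat per single-colour array. All rats were male F344 rats, 19 months old, with no genetic modification named, housed in the nose-only exposure system for 6 h a day on 5 days of each of 4 weeks. Control rats breathed filtered air and exposed rats a TiO2 nanostructured aerosol at 10 mg/m3, and lungs were taken directly after the last exposure (D0) or 28 days later (D28). The arrays of D0 came from 6 control and 5 exposed rats and those of D28 from 6 of each group, and a further exposed rat of D0 was not analysed here.

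Glucocorticoids cross the cell membrane and bind the receptor encoded by Nr3c1, which is held in the cytoplasm by heat shock proteins and immunophilins. The bound receptor moves to the nucleus, where it raises transcription of some genes from glucocorticoid response elements and lowers transcription of many inflammatory genes. In the lung this hormone axis is known for surfactant maturation before birth and for restraint of inflammation in adult life, and corticosterone, the main glucocorticoid of the rat, follows the time of day. The genes induced include inhibitors of the pathway itself (Fkbp5), anti-inflammatory mediators (Tsc22d3), transcription factors (Zbtb16, Klf9, Klf15), and regulators of ion transport, fuel use and growth (Sgk1, Pdk4, Ddit4, Cdkn1c).

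Promoter sequences are shown for the genes whose values below change most clearly and for which RefSeq gives a window: Klf15 and Klf9, under-expressed on D0, and Fkbp5, under-expressed on D28. Each is the 250 bases before the annotated start, on the strand of the gene and in the GRCr8 build, at chr4:124522765-124523014 on the plus strand for Klf15, chr1:230126396-230126645 on the plus strand for Klf9 and chr20:6543556-6543805 on the minus strand for Fkbp5. Capitals mark the letters CACGTG, the E-box that clock transcription factors bind.
Klf15: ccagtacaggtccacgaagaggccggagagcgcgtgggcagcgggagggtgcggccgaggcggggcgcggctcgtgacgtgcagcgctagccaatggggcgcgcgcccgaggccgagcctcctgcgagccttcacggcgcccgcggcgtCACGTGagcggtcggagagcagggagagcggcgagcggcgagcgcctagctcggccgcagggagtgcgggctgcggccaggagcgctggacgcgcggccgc
Klf9: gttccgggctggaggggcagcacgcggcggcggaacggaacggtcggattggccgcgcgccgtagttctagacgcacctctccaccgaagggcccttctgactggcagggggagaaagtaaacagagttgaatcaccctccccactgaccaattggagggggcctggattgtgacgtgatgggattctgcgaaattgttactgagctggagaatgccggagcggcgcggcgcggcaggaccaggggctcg
Fkbp5: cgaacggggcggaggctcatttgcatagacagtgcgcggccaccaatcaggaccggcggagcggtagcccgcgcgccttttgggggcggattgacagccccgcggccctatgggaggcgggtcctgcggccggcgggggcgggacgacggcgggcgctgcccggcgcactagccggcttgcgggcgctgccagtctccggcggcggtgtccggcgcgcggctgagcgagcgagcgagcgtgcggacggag

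The RefSeq table held 13 windows for 8 of the 10 genes, each of 300 bases with 50 after the start, and none was listed for Zbtb16 and Cdkn1c. The full glucocorticoid response element, AGAACA and TGTTCT with any 3 bases between, was in 0 of the 13 windows and in 0.0149% of all 33469 windows of the same length. Its shorter arm AGAACA, read on both strands and overlapping the full element by construction, was in 0 of the 13 windows and in 20.7% of all. The E-box CACGTG, which reads the same on both strands, was in 1 of the 13 windows, that of Klf15, from 101 to 96 bases before the start, and in 6.42% of all windows. These matches describe letters in a short window and say nothing about binding.

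Signals are given as log2 of the quantile normalized array intensity, and a difference on that scale is a log2 fold change (FC). A gene was called a differentially expressed gene (DEG) when the Benjamini-Hochberg adjusted p from limma over all 23029 genes was below 0.05 and the signal was at least 1.5-fold higher or lower, and all adjusted p below come from that model. Per array, 69.5% to 77.9% of spots passed the test of the scanner software for a signal well above background, and arrays of a group correlated with each other at 0.967 to 0.989. The arrays lay on 5 slides, of which 3 held all 4 groups, and arrays on the same slide deviated together (median correlation 0.178 over 45 pairs of arrays from different groups, against -0.048 over 153 pairs on different slides). Differences within slides are therefore given beside those of each gene. The exposed D28 arrays carry a source label of day 0 beside titles and descriptions of day 28, and the titles were followed. All members of the lists of type II pneumocyte, type I pneumocyte and ciliated cell markers (8, 6 and 6 genes) had a probe well above background on all 23 arrays, as did 9 of 10 markers of cardiac and skeletal muscle. In RNA of a whole lobe, fewer cells of a type and less RNA per cell cannot be told apart.

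On D0, 3 of the 10 genes were DEGs and all 3 were under-expressed in exposed rats: Klf15, Klf9 and Zbtb16. Over all genes, 1.79% were DEGs on D0 and 0.695% were under-expressed DEGs. On D28, 2 of the 10 were DEGs, Fkbp5 and Zbtb16, again both under-expressed, where 0.756% of all genes were DEGs and 0.269% were under-expressed DEGs. Zbtb16 was the 1 gene of the 10 called on both days, against 89 of all 23029 genes tested. The exposed mean was below the control mean for 8 of 10 genes on D0 and for 9 of 10 on D28, against 50.1% and 51.2% of all genes. At an unadjusted p below 0.05, 5 of the 10 were lower on D0 and 6 on D28, and 0 were higher, against 6.34% and 6.18% of all genes lower and 5.61% and 4.81% higher. The median log2 FC of the 10 genes was -0.45 on D0 and -0.39 on D28, where that of all genes was -0.001 and -0.006. In 5 genes on D0 (Zbtb16, Fkbp5, Klf9, Klf15 and Ddit4) every exposed rat lay below every control rat, which held for 2.37% of all genes. On D28 this held for Cdkn1c alone among the 10, and for 0.543% of all genes.

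**Figure D1:**
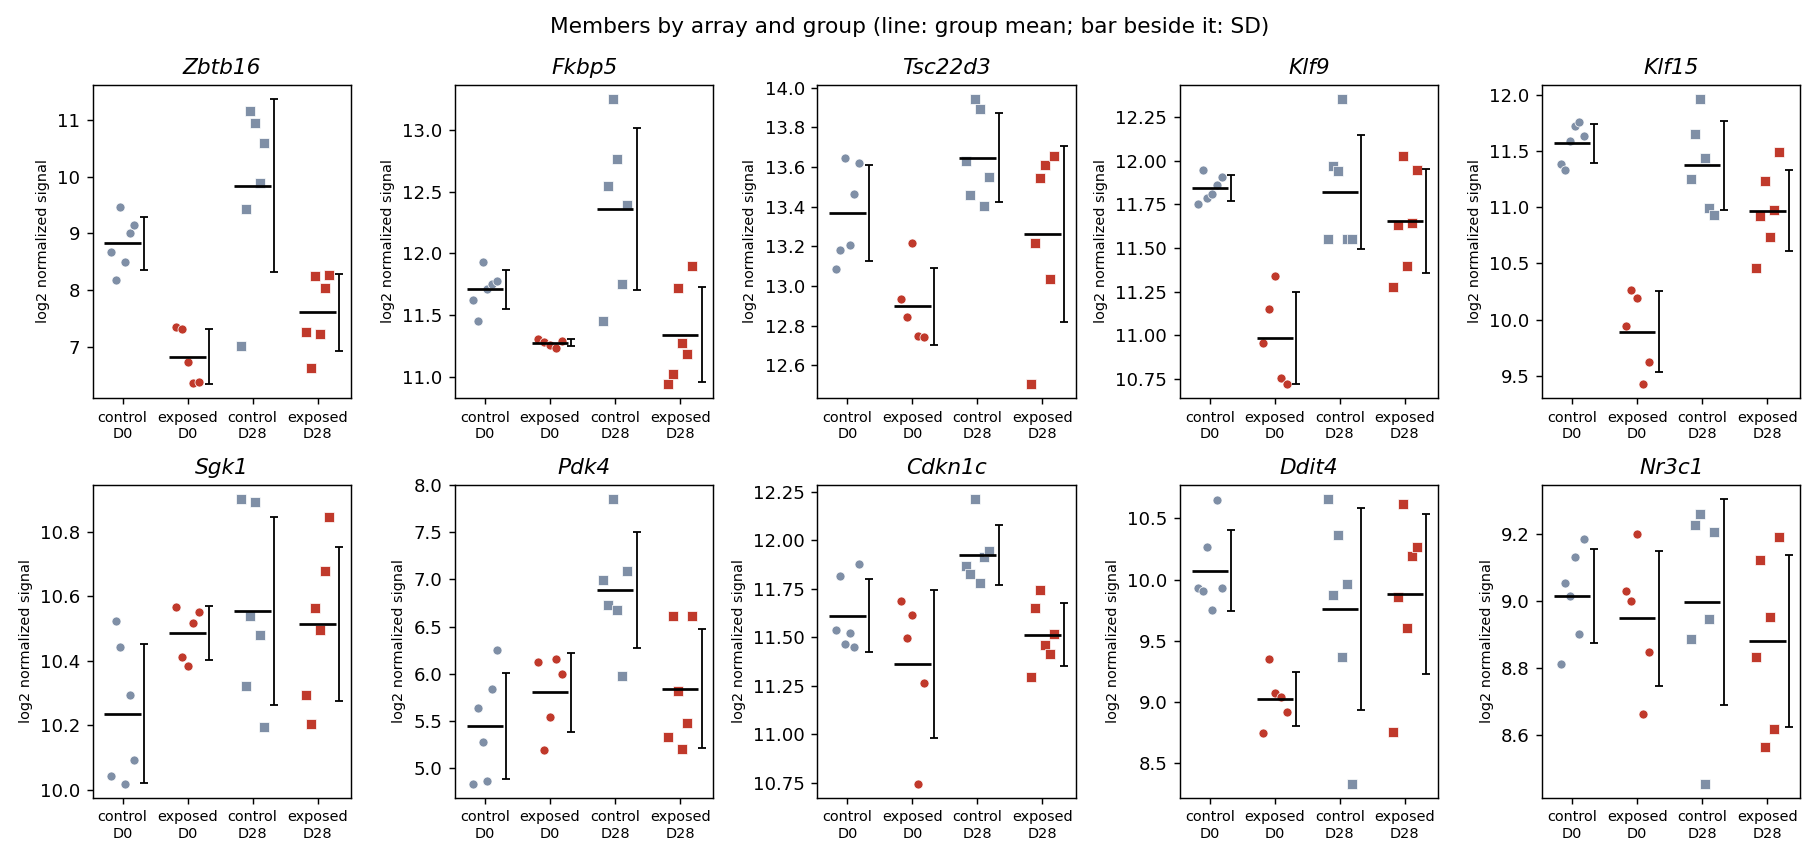
Log2 normalized signal of each of the 10 genes (y axis, a scale of its own per gene) by group (x axis), with 1 point per array, a line at the group mean and a bar of 1 SD beside it, and circles for D0 and squares for D28. The 5 exposed rats of D0 sit below all 6 controls for Zbtb16, Fkbp5, Klf9, Klf15 and Ddit4, and the control rats of D28 spread widely for Zbtb16, from 7.02 to 11.16.

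The receptor gene Nr3c1 showed no call in any comparison. On D0 its log2 signal in the exposed rats was 9.03, 8.9997, 9.20, 8.66 and 8.85, and in the controls it ran from 8.81 through a median of 9.03 to 9.18. On D28 it ran from 8.57 (median 8.89) to 9.19 in exposed rats and from 8.46 (median 9.08) to 9.26 in controls. The groups overlapped on both days. The log2 FC was -0.07 on D0 (standard error 0.144, 95% interval -0.37 to 0.23, adjusted p = 0.976) and -0.12 on D28 (0.137, -0.40 to 0.17, adjusted p = 0.856), so that both intervals lay within the 1.5-fold limit of 0.585. Within slides the difference ran from -0.19 to 0.0147 on the 4 slides of D0 and from -0.32 to -0.08 on the 3 of D28. Its 3 probes gave log2 FC of 0.01, -0.10 and -0.10 on D0 and of 0.08, -0.07 and -0.35 on D28.

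Fkbp5 encodes an immunophilin that binds the receptor complex with Hsp90 and lowers its affinity for hormone, and it serves as a short feedback loop. On D0 the 5 exposed rats were nearly identical, at 11.31, 11.28, 11.26, 11.24 and 11.29, and the controls ran from 11.45 (median 11.73) to 11.93. All exposed rats of D0 were thus below all controls, with an SD of 0.029 in the exposed group and 0.161 in the controls. The log2 FC of D0 was -0.43 (standard error 0.236, 95% interval -0.92 to 0.06) and was not called (adjusted p = 0.532). That standard error shares the spread of all 4 groups, and on D28 the SD was 0.386 in exposed rats and 0.660 in controls. Over the 14 alternative settings the adjusted p of D0 ran from 0.0240 to 0.568. The log2 FC ran from -0.46 to -0.39 over them, short of the 1.5-fold limit of 0.585 throughout. On D28 the exposed rats ran from 10.94 (median 11.23) to 11.90 and the controls from 11.45 (median 12.47) to 13.25. Of the 6 exposed rats, 4 were below every control. The log2 FC of D28 was -1.02 (standard error 0.225, adjusted p = 0.0267), a signal 2.03-fold lower. Within slides the exposed rats were lower on all 3 slides that held both groups of D28, by -1.31, -0.15 and -1.37, and on all 4 slides of D0, by -0.14 to -0.53. The call of D28 was lost in 6 of 23 fits that left out 1 array each (without control D28 rats 2, 3 or 4 or exposed D28 rats 1, 2 or 5, adjusted p from 0.0517 to 0.0715), and in a fit of the D28 arrays alone (adjusted p = 0.240). The single probe lies at chr20:6637600-6637659 in the rn4 build given by the array files, on the minus strand. The exon that each probe covers was not analysed here.

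Tsc22d3 encodes the leucine zipper protein GILZ, which binds and restrains inflammatory transcription factors. It was the brightest of the 10 genes by probe signal on every group mean, a statement about probes and not about amounts of RNA. The exposed rats of D0 had 12.94, 12.84, 13.22, 12.75 and 12.74 and the controls from 13.09 (median 13.34) to 13.65. Exposed rat 3 overlapped the controls and the other 4 were below all of them. On D28 the exposed rats ran from 12.51 (median 13.38) to 13.66 and the controls from 13.40 (median 13.59) to 13.94. The log2 FC was -0.47 on D0 (standard error 0.178, adjusted p = 0.213) and -0.39 on D28 (0.169, adjusted p = 0.381), and neither was called. Exposed rats were lower within all 4 slides of D0, by -0.25 to -0.63, and within all 3 of D28, by -0.07 to -0.34.

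Zbtb16 encodes the transcriptional repressor PLZF, which is strongly induced by glucocorticoids in many cell types and is also a factor of innate-like lymphocytes. On D0 the exposed rats had 7.36, 7.31, 6.74, 6.37 and 6.39 and the controls from 8.18 (median 8.84) to 9.46. No exposed rat reached the lowest control. The log2 FC was -1.99 (standard error 0.528, 95% interval -3.09 to -0.90, adjusted p = 0.0435), a signal 3.98-fold lower. On D28 the exposed rats ran from 6.62 (median 7.65) to 8.27 and the controls from 7.02 (median 10.24) to 11.16. Control D28 rat 1, at 7.02, lay among the exposed rats, and the other 5 controls, from 9.43 upwards, lay above all of them. The log2 FC of D28 was -2.23 (standard error 0.503, adjusted p = 0.0294), a signal 4.68-fold lower, and without control D28 rat 1 it was -2.79 (adjusted p = 0.000555).

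The 3 probes of Zbtb16 lie within chr8:51926561-51934564 in rn4 on the minus strand, and all moved in the same direction. Their log2 FC were -2.07, -2.09 and -1.81 on D0 and -2.12, -2.11 and -2.46 on D28. The dimmest of them was well above background on 21 of 23 arrays and the others on all 23. Within slides, exposed rats were lower on all 4 slides of D0, by -0.82 to -2.47, and on all 3 of D28, by -2.55, -0.32 and -3.96, where the smallest value is from the slide that held control D28 rat 1. The call of D0 was lost in 13 of 23 fits without 1 array (those without control D0 rats 1, 3, 4, 5 or 6, any of the exposed D0 rats, control D28 rats 2 or 5, or exposed D28 rat 1, adjusted p up to 0.115). The model shares the spread of all 4 groups, and the SD of controls was 0.47 on D0 and 1.52 on D28. Without control D28 rat 1 the log2 FC of D0 was still -1.99, with a standard error of 0.345 (adjusted p = 0.00223). The call of D28 was lost in 7 of the fits (without control D28 rats 3, 4, 5 or 6 or exposed D28 rats 1, 2 or 4, adjusted p up to 0.0726). The D28 call was also lost in a fit of the D28 arrays alone (adjusted p = 0.225) and with the slide as a fixed block (adjusted p = 0.0642). Over the fits without 1 array the log2 FC stayed between -2.12 and -1.87 on D0 and between -2.79 and -1.96 on D28.

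**Figure D2:**
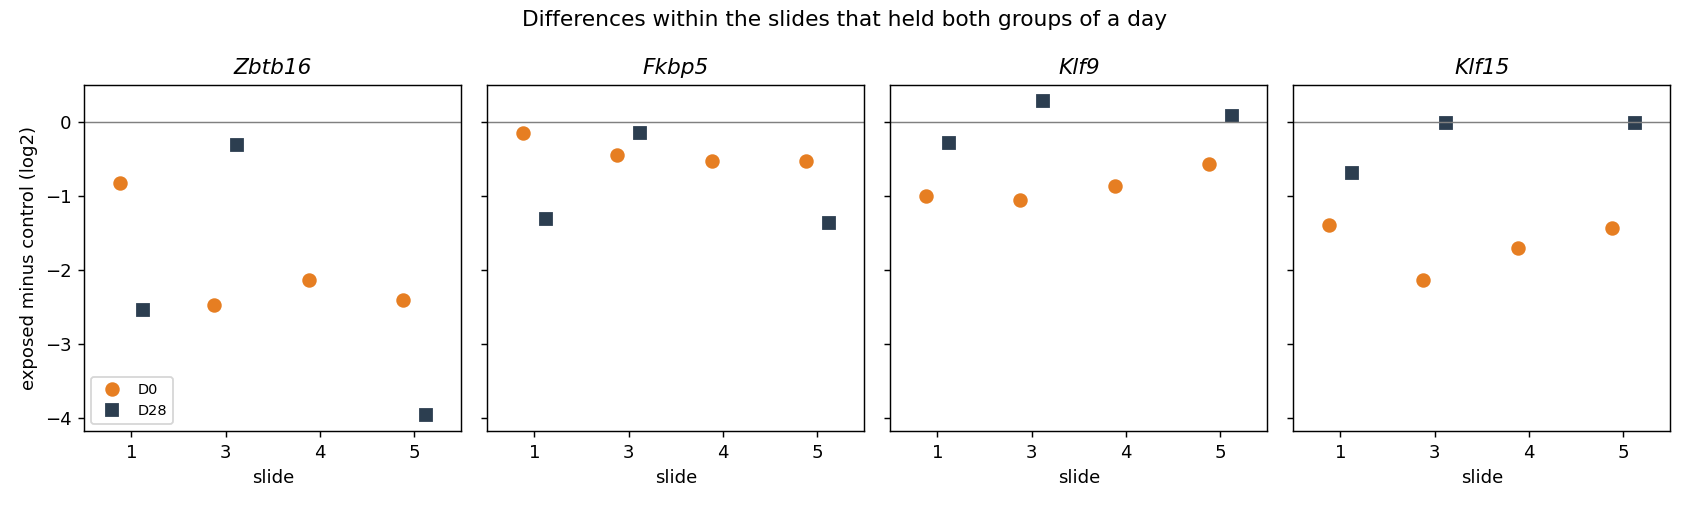
Mean of exposed minus mean of control rats in log2 units (y axis) within each slide that held both groups of a day (x axis, slide number), for Zbtb16, Fkbp5, Klf9 and Klf15, with circles for D0 and squares for D28. Each point rests on 1 or 2 rats per group, all points of D0 lie below 0, and on slide 3 the D28 differences of Zbtb16 (-0.32) and Fkbp5 (-0.15) are the smallest of their day.

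The Krüppel-like factors Klf9 and Klf15 are transcription factors that the receptor induces directly, and Klf15 acts on amino acid and lipid use and in airway smooth muscle. Klf15 carried the clearest difference of the 10 genes on D0. Its exposed rats had 9.94, 10.27, 10.19, 9.43 and 9.62 and its controls from 11.33 (median 11.61) to 11.76. The gap of more than 1 log2 unit between the highest exposed and the lowest control rat exceeded the spread of either group (SD 0.360 and 0.176). The log2 FC was -1.68 (standard error 0.197, 95% interval -2.09 to -1.27, adjusted p = 7.9e-05), a signal 3.19-fold lower, and within the 4 slides it was -1.39, -2.14, -1.71 and -1.44. By D28 the exposed rats ran from 10.46 (median 10.95) to 11.49 and the controls from 10.93 (median 11.34) to 11.96, and the difference of -0.40 (SE 0.188) was not called (adjusted p = 0.430). Within the 3 slides of D28 it was -0.69, -0.02 and -0.0091. The probe lies at chr4:124726755-124726814 in rn4 on the plus strand.

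Klf9, a repressor that also follows thyroid hormone, showed the same order of groups. On D0 the exposed rats had 10.95, 11.15, 11.34, 10.75 and 10.72 and the controls from 11.75 (median 11.84) to 11.95, with no overlap. The log2 FC was -0.86 (standard error 0.157, 95% interval -1.19 to -0.54, adjusted p = 0.00313), a signal 1.82-fold lower, and it was -0.996, -1.05, -0.86 and -0.57 within the 4 slides. By D28 its exposed rats ran from 11.28 (median 11.64) to 12.03 and the controls from 11.55 (median 11.75) to 12.35. The D28 groups overlapped, and the log2 FC was -0.17 (SE 0.1495, adjusted p = 0.783), and within slides its sign varied (-0.28, 0.29 and 0.08). The probe lies at chr1:226445625-226445684 in rn4 on the plus strand. Klf9 and Klf15 were called on D0 in all 23 fits without 1 array and under all 14 alternative settings.

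**Figure D3:**
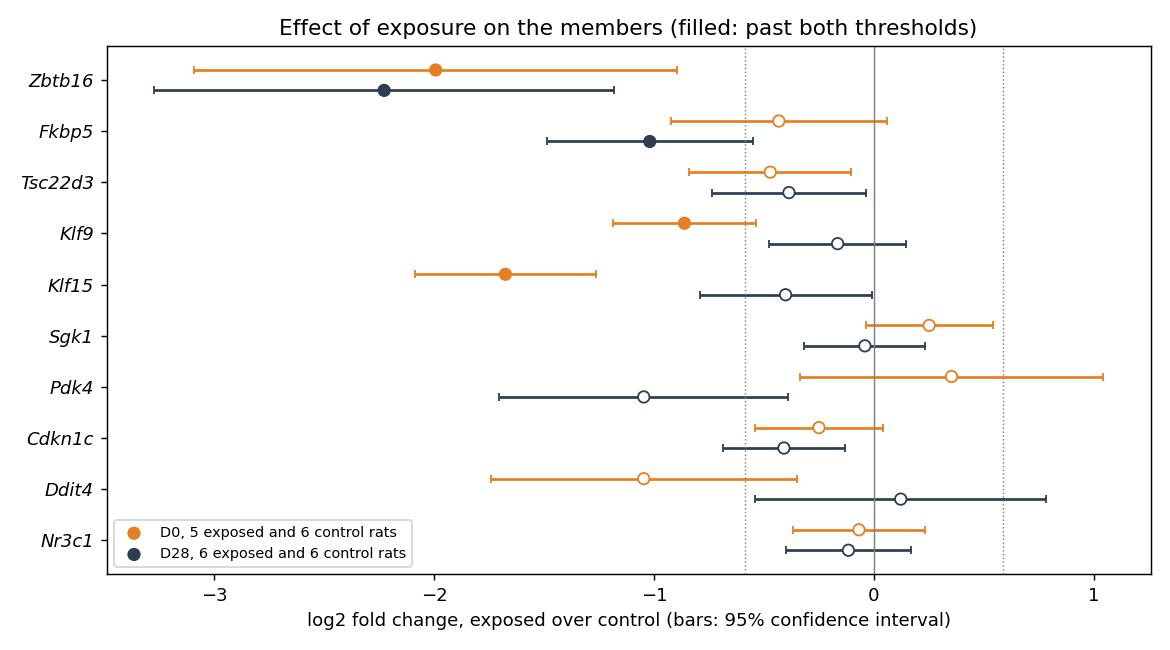
Log2 FC of exposed over control rats (x axis) for each of the 10 genes (y axis) on D0 and on D28, with 95% confidence intervals as bars, filled points for genes past both thresholds and dotted lines at a 1.5-fold change. Zbtb16 is filled on both days at -1.99 and -2.23, Klf15 (-1.68) and Klf9 (-0.86) on D0, and Fkbp5 (-1.02) on D28, and the intervals of Nr3c1 and Sgk1 include 0 on both days.

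Ddit4, also named Redd1, encodes an inhibitor of mTORC1 that responds to glucocorticoids, hypoxia and DNA damage. On D0 the exposed rats had 8.75, 9.35, 9.07, 9.04 and 8.92 and the controls from 9.75 (median 9.93) to 10.65. The groups did not overlap, yet the log2 FC of -1.05 (standard error 0.334, a signal 2.07-fold lower) was not called (adjusted p = 0.111). On D28 the spread within groups was wider, from 8.76 (median 10.02) to 10.62 in exposed rats and from 8.33 (median 9.92) to 10.66 in controls, and the log2 FC was 0.12 (standard error 0.319, adjusted p = 0.951). In a fit of the D0 arrays alone, where the wide D28 groups did not enter the spread, Ddit4 was called on D0 (adjusted p = 0.00987), and likewise without control D28 rat 6, the rat at 8.33 (adjusted p = 0.0369). Within the 4 slides of D0 exposed rats were lower by -0.86 to -1.25, whereas the 3 slides of D28 gave -0.18, 0.09 and 1.52. Its 2 probes gave -1.02 and -1.07 on D0 and 0.15 and 0.09 on D28.

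Sgk1 encodes a kinase that keeps epithelial sodium channels at the cell surface. The D0 values were 10.57, 10.41, 10.38, 10.52 and 10.55 in exposed rats and, in the controls, from 10.02 (median 10.19) to 10.52. Sgk1 and Pdk4 were the 2 genes whose exposed mean was above the control mean on D0, with the groups overlapping in both. By D28 the Sgk1 signal ran from 10.20 (median 10.53) to 10.85 in exposed rats and from 10.19 (median 10.51) to 10.90 in controls, almost the same range. The log2 FC of Sgk1 was 0.25 on D0 (standard error 0.139, adjusted p = 0.543) and -0.04 on D28 (0.132, 95% interval -0.32 to 0.23, adjusted p = 0.963). Within slides it ran from 0.0464 to 0.35 on D0 and from -0.07 to 0.24 on D28.

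Pdk4 encodes a kinase that inhibits pyruvate dehydrogenase and so spares glucose in fasting. It was the dimmest of the 10 genes, and 1 of its 2 probes was well above background on only 9 of 23 arrays (1 of 6 control and 1 of 5 exposed on D0, 5 of 6 control and 2 of 6 exposed on D28), so that its low values carry little information. Exposed rats of D0 had 6.13, 5.19, 5.54, 6.15 and 5.99 and the controls from 4.83 (median 5.45) to 6.25. The D28 values ran from 5.20 (median 5.65) to 6.61 in exposed rats and, in the controls, from 5.97 (median 6.86) to 7.85. The log2 FC was 0.35 on D0 (standard error 0.331, adjusted p = 0.847) and -1.05 on D28 (0.316, adjusted p = 0.120), and neither was called. The sign varied within slides of D0 (-0.71 to 0.82), and all 3 slides of D28 were lower, by -0.49 to -1.39.

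Cdkn1c encodes the cell cycle inhibitor p57. On D0 the exposed rats had 11.69, 11.50, 11.62, 10.74 and 11.26 and the controls from 11.45 (median 11.53) to 11.88. On D28 the exposed rats ran from 11.30 (median 11.49) to 11.74 and the controls from 11.78 (median 11.89) to 12.21. The D28 groups did not overlap, but the shift was small: the log2 FC was -0.25 on D0 (standard error 0.141, adjusted p = 0.558) and -0.41 on D28 (0.134, adjusted p = 0.166), and neither was called. Within slides it was -0.11 to -0.75 on D0 and -0.53, -0.31 and -0.29 on D28.

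Whether the effect of exposure differed between the days was tested as a contrast of its own, and 0 of the 10 genes were called, where 0.0304% of all genes were (7 genes, by limma). At an unadjusted p below 0.05, 4 of the 10 differed between the days, against 3.44% of all genes. For Klf15, Ddit4 and Klf9 the log2 FC was higher on D28 than on D0, by 1.27 (standard error 0.273, adjusted p = 0.200), 1.17 (0.462, adjusted p = 0.9998) and 0.70 (0.217, adjusted p = 0.808). For Pdk4 it was lower, by -1.40 (0.458, adjusted p = 0.888). With normexp background correction the difference of Klf15 was called (log2 difference 1.23, adjusted p = 0.0410). For Zbtb16 the difference was -0.23 with a 95% interval from -1.75 to 1.28, which is wide beside the effects themselves.

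Among control rats, those of D28 differed from those of D0 in 1 of the 10 genes, Pdk4, which was higher by 1.44 (standard error 0.316, adjusted p = 0.0295), a signal 2.71-fold higher. Over all genes 0.608% were called in this comparison and 0.386% were higher. Of the 6 control rats of D28, 5 were above every control rat of D0. The Pdk4 probes gave 1.19 and 1.69, and with the brighter probe alone, which was well above background on all 23 arrays, the call was lost (adjusted p = 0.0556). It was also lost in 8 of 23 fits without 1 array (without control D0 rats 1, 2, 3 or 4 or control D28 rats 2, 3, 4 or 6, adjusted p up to 0.0901) and with the slide as a fixed block (log2 difference 1.29, adjusted p = 0.0550). Fkbp5 (0.65, adjusted p = 0.205) and Zbtb16 (1.01, adjusted p = 0.397) were not called among controls, and both were called without control D28 rat 1 (0.83, adjusted p = 0.0436, and 1.57, adjusted p = 0.0264). This comparison shares its control rats with those of exposure, so that a higher control of D28 stands on both sides. The exposed means of Zbtb16 were 6.83 on D0 and 7.61 on D28, and those of Fkbp5 were 11.27 and 11.34.

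The other genes of the pathway were described by lists. Of 19 measured genes of receptor function and steroid handling, which include the mineralocorticoid receptor, chaperones, coactivators and the enzymes that regenerate or inactivate corticosterone, 0 were called on D0 or on D28 by limma. At an unadjusted p below 0.05, 1 was lower on D0, and 1 was higher and 4 were lower on D28, where the shares of all genes were 6.34% lower on D0 and 4.81% higher and 6.18% lower on D28. Both counts of 1 in 19 are near those shares, and the count of 4 lower on D28 is above its share. By mean, 8 of the 19 were lower and 11 higher on D0, and 15 were lower and 4 higher on D28. Of all genes, 50.1% and 51.2% were lower by mean on D0 and D28. The median log2 FC of the 19 genes was 0.003 on D0 and -0.13 on D28. Examples with a high signal were the chaperones Hspa8 (0.05 and -0.01) and Hsp90ab1 (0.07 and -0.11).

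Of 32 measured other glucocorticoid-induced genes, 3 were under-expressed and 3 over-expressed on D0 (0.695% and 1.09% of all genes), and 0 were called on D28 by limma. At an unadjusted p below 0.05, 6 were higher and 7 lower on D0, against 5.61% and 6.34% of all genes, so that both counts were above the background. On D28, 1 was higher and 3 were lower, against 4.81% and 6.18% of all genes, so that the D28 counts were near or below the background. Lyve1 on D0 (-0.577, adjusted p = 0.0269) and Mt1 on D28 (0.43, adjusted p = 0.0453) missed only the 1.5-fold limit. The median log2 FC was -0.002 on D0 and -0.04 on D28, near that of all genes, unlike the -0.45 and -0.39 of the 10 genes. Under-expressed on D0 were Per1, a clock gene with a response element of its own (-1.41, adjusted p = 0.0182), Map3k6, a stress kinase (-0.90, adjusted p = 0.00559), and Errfi1, an inhibitor of EGF receptor signalling (-0.68, adjusted p = 0.0428). Over-expressed on D0 were Angptl4, an inhibitor of lipoprotein lipase (1.09, adjusted p = 0.0241), and the metallothioneins Mt2A (1.00, adjusted p = 0.00105) and Mt1 (0.75, adjusted p = 0.000508), which bind metals and also respond to zinc and oxidative stress. Errfi1 and Mt1 were named after their values were seen. Genes with a high signal that were not called included Anxa1 (0.03 on D0 and -0.01 on D28) and Cebpd (-0.27 and -0.03).

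Of 20 inflammatory genes that glucocorticoids repress, 4 were over-expressed and 0 under-expressed on D0, where 1.09% of all genes were over-expressed. On D28, 0 of the 20 were called by limma, against 0.486% of all genes over-expressed. Ccl3 on D0 (0.48, adjusted p = 0.0272) and Csf2 on D28 (0.47, adjusted p = 0.0330) missed only the 1.5-fold limit. At an unadjusted p below 0.05, 8 were higher and 0 lower on D0, against 5.61% and 6.34% of all genes. On D28, 6 were higher and 0 lower, against 4.81% and 6.18%. The 4 called on D0 were the monocyte chemokines Ccl7 (1.99, adjusted p = 0.000625) and Ccl2 (1.46, adjusted p = 0.00657), the endothelial adhesion molecule Sele (1.23, adjusted p = 0.0254) and Tnf (1.06, adjusted p = 0.00887). Icam1, the brightest of the list, had 0.04 on D0 and -0.15 on D28. The median log2 FC of the list was 0.30 on D0 and 0.14 on D28.

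**Figure D4:**
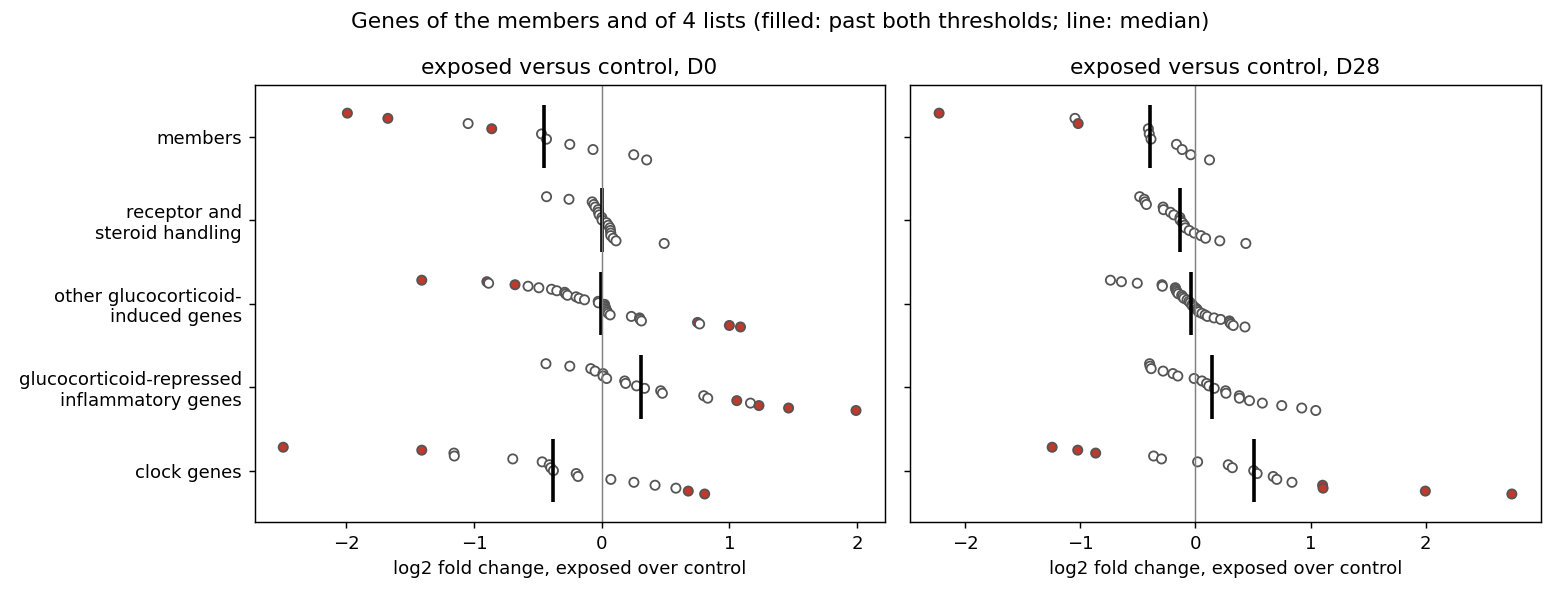
Log2 FC of exposed over control rats (x axis) on D0 (left) and D28 (right) for the 10 genes and for each measured gene of 4 lists (rows), with filled points for genes past both thresholds and a line at the median of each row. The 10 genes have medians of -0.45 and -0.39, the 32 other glucocorticoid-induced genes medians near 0, and the clock genes spread from -2.50 to 0.81 on D0 and from -1.25 to 2.75 on D28.

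Some clock genes were also DEGs. Of 17 measured, 2 were over-expressed and 2 under-expressed on D0 (1.09% and 0.695% of all genes), and 4 were over-expressed and 3 under-expressed on D28 (0.486% and 0.269%). Among control rats, 3 were higher and 9 lower on D28 than on D0 (0.386% and 0.221% of all genes). Nr1d1, which encodes the repressor REV-ERB alpha, had a mean log2 signal on D0 of 9.03 in controls and 6.53 in the exposed group (log2 FC -2.50, adjusted p = 0.000625), and of 6.61 and 8.61 on D28 (2.00, adjusted p = 0.00622). Its change had opposite signs on the 2 days, and the difference was itself called (4.49, adjusted p = 0.000232). Arntl, its target, had 7.30 and 7.88 on D0 (0.58, adjusted p = 0.344) and 9.71 and 8.47 on D28 (-1.25, adjusted p = 0.0126). Per1 had 10.60 and 9.19 on D0 and 10.19 and 10.21 on D28 (0.02, adjusted p = 0.994). Dbp, an output gene of the clock, had log2 FC of -1.16 on D0 (adjusted p = 0.0842) and 2.75 on D28 (adjusted p = 0.000284). Bhlhe40 on D28 (0.51, adjusted p = 0.0174) missed only the 1.5-fold limit. The time of day of necropsy is not given in the sources used here, and the part of the clock genes in these results was not tested.

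Mean levels of several cell type marker lists also differed between the groups. The 8 macrophage markers had a mean log2 signal per array of 9.23 to 9.53 in D0 controls and 9.68 to 10.11 in the exposed D0 group, without overlap, and 9.12 to 9.54 and 9.44 to 9.79 on D28. Of these 8, Siglec1 (0.89) and C1qb (0.65) were over-expressed on D0 and 0 were called on D28. At an unadjusted p below 0.05, 5 were higher on D0 and 4 on D28, and 0 were lower. Cd68 missed only the 1.5-fold limit on both days (0.55, adjusted p = 0.00293, and 0.42, adjusted p = 0.0294). The 7 endothelial markers ran from 12.49 to 12.67 in D0 controls and from 12.18 to 12.38 in the exposed D0 group, again without overlap, and from 12.47 to 12.69 and from 12.24 to 12.62 on D28. None of the 7 was called by limma on either day, while 3 were lower at an unadjusted p below 0.05 on each day. Tek on D28 (-0.46, adjusted p = 0.0246) missed only the 1.5-fold limit. The 9 measured markers of cardiac and skeletal muscle, tissues in which Klf15 and Pdk4 are also active, ran from 8.51 to 9.69 in D0 controls and from 8.18 to 8.58 in the exposed D0 group, and from 8.25 to 8.73 and from 8.08 to 9.30 on D28. Myl7, of atrial muscle, was under-expressed on both days (-0.60, adjusted p = 0.00990, and -0.63, adjusted p = 0.0107). It was the only one of the 9 called. At an unadjusted p below 0.05, 5 of the 9 were lower on D0 and 4 on D28, and 0 were higher. Tnnt2 (-0.56, adjusted p = 0.0394), Tnni3 (-0.49, adjusted p = 0.0467) and Actc1 (-0.43, adjusted p = 0.0489) on D28 missed only the 1.5-fold limit. So did Tnni3 on D0 (-0.47, adjusted p = 0.04998). By mean, 9 of 9 were lower on D0, and 6 were lower and 3 higher on D28. The 8 markers of type II pneumocytes ran from 14.56 to 14.67 in D0 controls and from 14.74 to 14.98 in exposed rats, without overlap, and from 14.56 to 14.85 and from 14.74 to 15.00 on D28. Those of type I pneumocytes, 6 genes, ran lower in exposed rats, from 12.53 to 12.67 in controls and from 12.10 to 12.49 in the exposed group of D0, without overlap, and from 12.46 to 12.83 and from 12.33 to 12.58 on D28. The 6 smooth muscle markers ran from 9.62 to 9.87 in controls and from 9.42 to 9.59 in exposed rats of D0, again without overlap, and from 9.50 to 9.82 and from 9.25 to 10.18 on D28. All 6 ciliated cell markers had a lower mean in exposed rats on both days, with levels of 10.22 to 10.42 and 9.62 to 10.24 on D0, and of 10.19 to 10.53 and 9.66 to 10.16 on D28, where the groups did not overlap. The 5 markers of secretory airway cells overlapped on both days (14.17 to 14.67 and 13.80 to 14.41 on D0, 14.08 to 14.61 and 13.42 to 14.21 on D28). None of the genes of these 5 lists was past both thresholds of a call by limma. Among the ciliated markers, Ccdc113 on D28 (-0.44, adjusted p = 0.0253) missed only the 1.5-fold limit. At an unadjusted p below 0.05, 5 type II markers were higher on D0 and 3 on D28, 2 and 1 type I markers were lower, 3 and 4 ciliated markers were lower, 2 and 0 smooth muscle markers were lower, and 2 secretory markers were lower on each day, with 1 higher on D0. Levels of the neutrophil, T cell, B cell and adipocyte lists overlapped between exposed and control rats on both days, and 0 of their 28 genes were called by limma. At an unadjusted p below 0.05, 1 was higher and 2 were lower on D0, and 0 were higher and 1 lower on D28. These counts of 28 were near or below the shares of all genes. Those shares were 5.61% higher and 6.34% lower on D0 and 4.81% and 6.18% on D28, and are the background for each list here. How often the mean of other sets of genes lay without overlap between the groups was not counted, so that no background is given for it. The part of these cell types in the results was not tested.

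Rats of the same group differed among themselves, and some of the 10 genes correlated across them. With each array centred on the mean of its group, 38 of the 45 pairs of the 10 genes had a Pearson correlation above 0 over 23 arrays (median 0.327, range -0.409 to 0.790), and 41 of 45 after the slide was removed too. The lowest was that of Sgk1 with Nr3c1, and no such count was made for pairs of other genes. Permutations of arrays within groups (100000, two-sided) gave an adjusted p below 0.05 over the 45 pairs, by both Pearson and Spearman, for 3 pairs. These were Zbtb16 with Fkbp5 (r = 0.790, permutation p = 0.0008, adjusted p = 0.01935, rho = 0.725, permutation p = 0.0007, adjusted p = 0.01575), Klf9 with Klf15 (r = 0.756, permutation p = 0.00086, adjusted p = 0.01935, rho = 0.817, permutation p = 0.00015, adjusted p = 0.00675), and Fkbp5 with Klf15 (r = 0.653, permutation p = 0.00372, adjusted p = 0.04185, rho = 0.664, permutation p = 0.00116, adjusted p = 0.0174). Without the 2 arrays farthest from the median, r was 0.598, 0.850 and 0.646, and with the slide removed 0.775, 0.871 and 0.607. A rat with a high Zbtb16 signal for its group thus tended to have a high Fkbp5 signal.

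The 10 genes were compared in the same way with Nr1d1, Arntl and Per1, in 30 relations. Ddit4 followed Per1 (r = 0.776, permutation p = 7e-05, adjusted p = 0.0021, rho = 0.717, permutation p = 0.0007, adjusted p = 0.021), with r = 0.792 without the 2 arrays farthest in Per1 and 0.775 with the slide removed. Klf15 followed Per1 by Pearson (r = 0.665, permutation p = 0.0027, adjusted p = 0.0405) and not by Spearman after adjustment (rho = 0.623, permutation p = 0.0048, adjusted p = 0.0718), with r = 0.579 without those 2 arrays and 0.757 with the slide removed. No relation with Nr1d1 or Arntl had an adjusted p below 0.05 in these permutation tests. The highest r with Nr1d1 was 0.305, for Zbtb16 (permutation p = 0.229, adjusted p = 0.623).

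**Figure D5:**
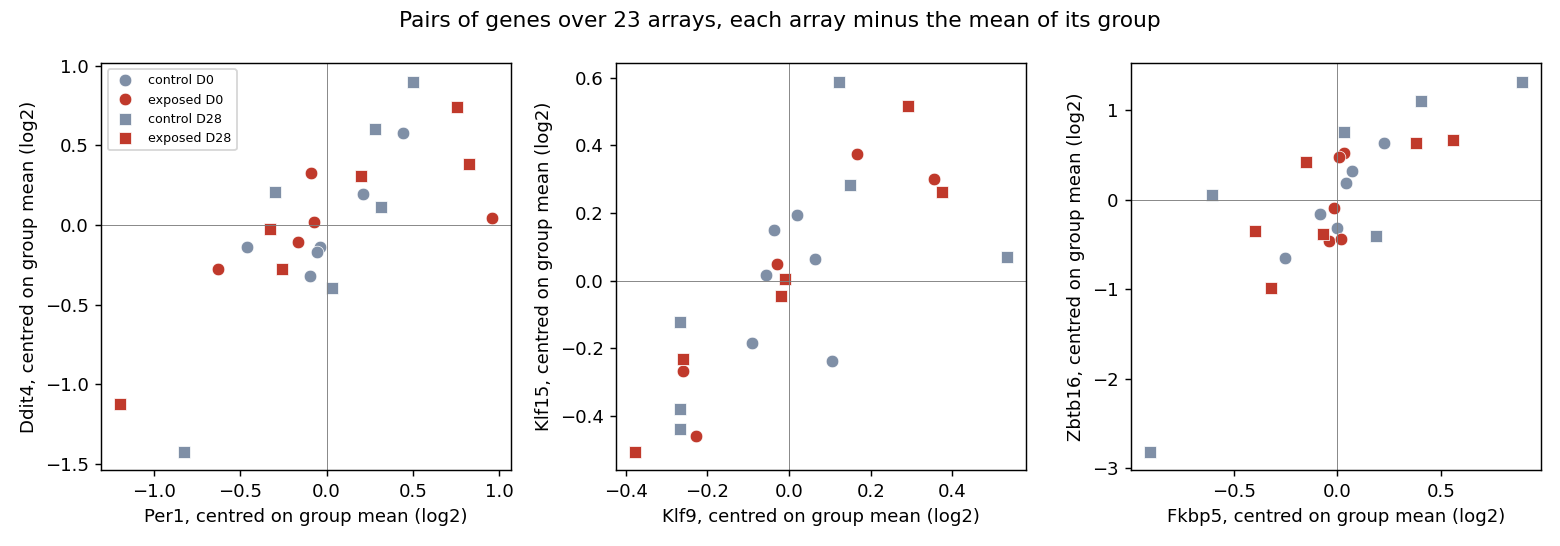
Log2 signal of pairs of genes over 23 arrays, each array minus the mean of its group, for Ddit4 against Per1, Klf15 against Klf9 and Zbtb16 against Fkbp5 (x and y axes in log2 units), with grey for control and red for exposed rats and circles for D0 and squares for D28. The correlations are 0.776, 0.756 and 0.790, and control D28 rat 1 stands far below the others for Zbtb16.

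The genes whose pattern between rats was most like the mean of the 9 genes other than Nr3c1, over the same 23 centred arrays, were Tent5b (r = 0.826), Map3k6 (0.824), Rprml (0.821), Hyal2 (0.804) and Rgcc (0.804). Their log2 FC on D0, which this measure did not use, were -1.79 (adjusted p = 0.000655), -0.90, -1.15 (adjusted p = 0.00357), -0.67 (adjusted p = 0.0242) and -0.46 (adjusted p = 0.0894). On D28 they were 0.04, -0.64, -0.05, -0.35 and -0.11, and none was called. For single genes the most alike were Anks1a for Zbtb16 (0.838), Mro for Fkbp5 (0.847), Sult5a1 for Klf9 (0.849) and Cnr1 for Klf15 (0.847). Mro was over-expressed on D0 (1.25, adjusted p = 0.0247), opposite in sign to Fkbp5.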

How the data were processed

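Total RNA of accessory lung lobes was labelled with 1 dye and hybridised to Agilent rat arrays of 62976 spots. The authors deposited the Feature Extraction output of each array, with intensities per spot: the processed signal is corrected for background and not normalized between arrays (per the file headers, 22 arrays were read with software 11.0.1.1 and the other with 12.0.1.1). They also deposited 1 table of quantile normalized intensities, used as an alternative. Groups followed the labels.

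Control spots were dropped, outlier spots were treated as missing, and a probe stayed when its log2 processed signal exceeded, on 5 or more arrays, the 95th percentile of 308 negative controls (40417 of 45598 probes). Arrays were quantile normalized, and the 32415 probes with a symbol were averaged per gene, leaving 23029 genes after 29 with a missing value were dropped. Symbols came from the array read with the later software. limma 3.58.1 in R 4.3.3 fitted 1 mean per group to 23 arrays (19 residual degrees of freedom), without a batch term. The number of arrays limits the precision, and p-values measure the spread between rats. Same-numbered rats were checked for pairing (33 pairs, median correlation -0.023) and were not paired. The fit was tested on simulated data. All 10 genes were named in every comparison. From each list, up to 4 DEGs by size and up to 2 bright genes were named, with Nr1d1, Arntl and Per1. Genes said to miss only the 1.5-fold limit were named after their values were seen. The 10 genes and the lists were chosen with earlier results of these data known. Alternatives were scaling, background, filter, probe choice, variance model, slide, replicate number, threshold, and 23 fits without 1 array. Promoters are from RefSeq (GRCr8); figures used matplotlib 3.10.9.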

Additional observations from a re-analysis of the deposited data

Results flagged for a closer look

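For each of the 10 genes and 4 groups (40 sets of 5 or 6 arrays), the highest and the lowest array were set against the others, where about 1 set in 20 is picked out by chance. A single set was: Cdkn1c in control rats of D28, where rat 3 had a log2 signal of 12.21 and the nearest other rat 11.94, a gap of 0.626 of the range of the group. Rat 3 was also the highest control rat of D28 for Zbtb16 (11.16), Fkbp5 (13.25), Pdk4 (7.85), Tsc22d3 (13.94), Klf15 (11.96) and Nr3c1 (9.26).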

How the results depend on the processing

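Of 14 alternative settings, the number of the 10 genes called on D0 stayed at 2 to 4 and Klf15 and Klf9 were called under all 14 and in all 23 fits without 1 array. For D28 the 2 calls became 0 with the arrays of that day alone and 1 with the slide as a fixed block (Zbtb16 lost, adjusted p = 0.0642). They became 3 at an unadjusted p. Here and below, the setting of an unadjusted p kept the 1.5-fold limit, unlike the counts at an unadjusted p given above. The difference between the days rose from 0 to 1 with normexp and to 4 at an unadjusted p. The comparison of controls went from 1 to 0 with the probe of highest mean and with the slide as a fixed block, and to 2 at an unadjusted p. Without 1 array, counts ran from 2 to 4 on D0, 0 to 2 on D28, 0 to 3 among controls and 0 to 0 for the difference. The D28 count was 0 without control D28 rats 3 or 4 or exposed D28 rats 1 or 2. Of these, control D28 rat 4 was alone on its slide and alone in its software version, so that its rat, slide and software cannot be told apart.

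Signs turned only for values near 0: Nr3c1 among controls (0.00319 with 75th percentile scaling, 0.0685 with the slide as a fixed block), and for the difference between days Nr3c1 (0.0323, brightest probe) and Zbtb16 (0.0320, slide as a fixed block), and Sgk1 on D28 (0.0415, slide as a fixed block). Without 1 array they ran from -0.0716 to 0.0890 (Nr3c1) and -0.132 to 0.0288 (Klf9) among controls, from -0.156 to 0.0150 (Nr3c1) and -0.797 to 0.0294 (Zbtb16) for the difference, from -0.131 to 0.00309 (Nr3c1) on D0, and from -0.163 to 0.347 (Ddit4) and -0.113 to 0.0283 (Sgk1) on D28. The causes were not tested.

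With the replicate block, 2 of the 10 genes were called on D0 (Zbtb16 not, log2 FC -1.88, adjusted p = 0.0648), 2 on D28, 0 for the difference and 1 among controls. The numbers do not pair rats, since arrays correlated best with the array of their own number in 14 of 66 cases. Over all genes, DEGs on D0 and D28 were 412 and 174, and 221 and 94 with normexp. They were 946 and 664 at an unadjusted p with the FC limit kept, and 659 and 303 at an adjusted p without the FC limit. On D28 they were 42 with that day alone and 263 with the slide as a random block. Among all genes, controls gave 140 DEGs, and 763 at an unadjusted p with the FC limit kept. The difference gave 7, and 461 at an unadjusted p with the FC limit kept. It gave 14 under normexp, 13 with a stricter filter, 12 with an intensity trend and 14 with the slide as a random block. Arrays per group limit what can be called: the 95% interval of Zbtb16 spans over 2 log2 units on each day, and the second Pdk4 probe lies near background on most arrays.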
